A study of Mus musculus with 75 samples.

Results

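RNA-seq of mouse skin fibroblasts carrying the E2f4 hairpin sh1 was compared with that of fibroblasts carrying a non-targeting hairpin (nt). The comparison rests on 6 libraries of the 75 samples in the series, 3 labelled E2f4_sh1_mRNA and 3 labelled E2f4_nt_mRNA, and covers every gene in the count files. All 6 libraries come from skin fibroblasts of C57BL/6 mice. Per the study's methods, the cells were proliferating early-passage primary cultures that received a lentiviral short hairpin RNA and were kept under puromycin until uninfected cells had died, so both groups carry a lentiviral insertion and a drug selection. The study designed a pair of hairpins against E2f4, and sh1 is the one with RNA-seq here, so a change that the loss of E2f4 causes and a change that belongs to this hairpin cannot be told apart. The labels do not give the age or sex of the mice, nor whether the 3 libraries of a group came from separate cultures, so the p-values measure the spread between these libraries, which may be technical. By the study's methods, genetic manipulation used fibroblasts of newborn mice and of older, female mice, and the source of these libraries is not stated. Xist, from the inactive X, and the Y-linked Ddx3y were both present in all 6 libraries, so the cells were not from female mice alone.

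E2F4 is a member of the E2F family of transcription factors, which bind DNA together with a DP partner at the promoters of genes for DNA replication and cell division. In resting cells E2F4 is best known as the DNA-binding arm of the DREAM complex, in which it recruits the pocket proteins p107 and p130 and keeps cell-cycle genes low. In other settings it has been described as an activator of the same genes. The study asked whether loss of E2F4 in dividing fibroblasts brings about features of replicative senescence, the stable arrest that cultured cells enter after repeated passaging.

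E2f4 itself, the targeted gene (mm10 chr8:105297663-105305370), was measured at 21.6, 20.4 and 21.8 CPM (read counts scaled by each library's total gene count) in the sh1 libraries. It stood at 59.6, 60.8 and 59.6 CPM in the nt libraries. The groups did not overlap and the libraries within each group were close to each other. E2f4 thus remained at 35.4% of the nt level, a log2 fold change of -1.50 ± 0.09 (SE; edgeR quasi-likelihood test, Benjamini-Hochberg adjusted p = 2.14e-07). Of the 18 annotated genes within 100 kb of E2f4, itself included, 15 had enough reads to be tested. Besides E2f4, Tmem208, a component of endoplasmic reticulum targeting, was the only other past the threshold, at 31.8, 32.5 and 35.6 CPM against 22.05, 29.9 and 25.9, and its call was lost without several single libraries and under DESeq2 (adjusted p = 0.0547).

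The libraries held 9147324 to 10467751 gene counts each, and 12310 genes were tested. The first principal component carried 48.7% of the variance and separated the sh1 from the nt libraries. sh1 replicate 3 stood apart from the other sh1 libraries on the second component, which carried 17.7%, and differed from them by a chi-square per degree of freedom of 12.0 and 10.5, whereas the other pairs within a group lay between 2.75 and 3.31. nt replicate 1 had reads on 18352 genes, against 14984 to 15510 in the other 5 libraries, and 14.3% of its counted reads, unassigned and ambiguous ones included, fell outside annotated genes, against 8.80% to 10.1%. Fibroblast markers were abundant throughout (12 of 12 tested, summed level 37970 to 39780 CPM in sh1 and 47530 to 47850 in nt). Krt14, Myod1, Myog and Ms4a1, defining markers of keratinocytes, muscle and B cells, had no reads in any library, and Ptprc, Pecam1, Cdh5 and Epcam stayed at 0.971 CPM or less. Other markers had low reads, most of all in nt replicate 1, where Trp63, Cdh1 and Vwf reached 1.85, 1.65 and 2.04 CPM. Summed keratinocyte markers were at 9.62 CPM in nt replicate 1 and 1.82 to 3.39 in the other 5 libraries. Summed endothelial markers were at 9.42 CPM there and 2.41 to 5.13 in the others.

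With sh1, 1233 genes were higher (10% of those tested) and 959 were lower (7.79%) at an adjusted p under 0.05, which is what "rose" and "fell" mean below. Changes over 2-fold were mostly upward: 180 genes rose by more than 2-fold (1.46%) and 26 fell by more than 2-fold (0.211%). The median log2 fold change of all genes tested was -0.0086. The CPM of the groups did not overlap for 4372 of the 12310 genes tested, so a lack of overlap alone sets a gene little apart. Counts depended on single libraries. Without nt replicate 1, 695 genes rose and 436 fell, without nt replicate 2 the numbers were 806 and 508, and without nt replicate 3 they were 829 and 476. Without sh1 replicate 2, 597 genes fell, and without sh1 replicate 1, 41 genes fell by more than 2-fold. Without sh1 replicate 3, 1401 genes rose and 1130 fell. The interferon response list accounted for 42 of the genes that rose (3.41%) and for 35 of those over 2-fold (19.4%), and the Seurat S phase and G2/M lists accounted for 42 of the genes that fell (4.38%). Outside these lists, 1191 genes rose and 917 fell, 145 and 26 of them by more than 2-fold.

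**Figure D1:**
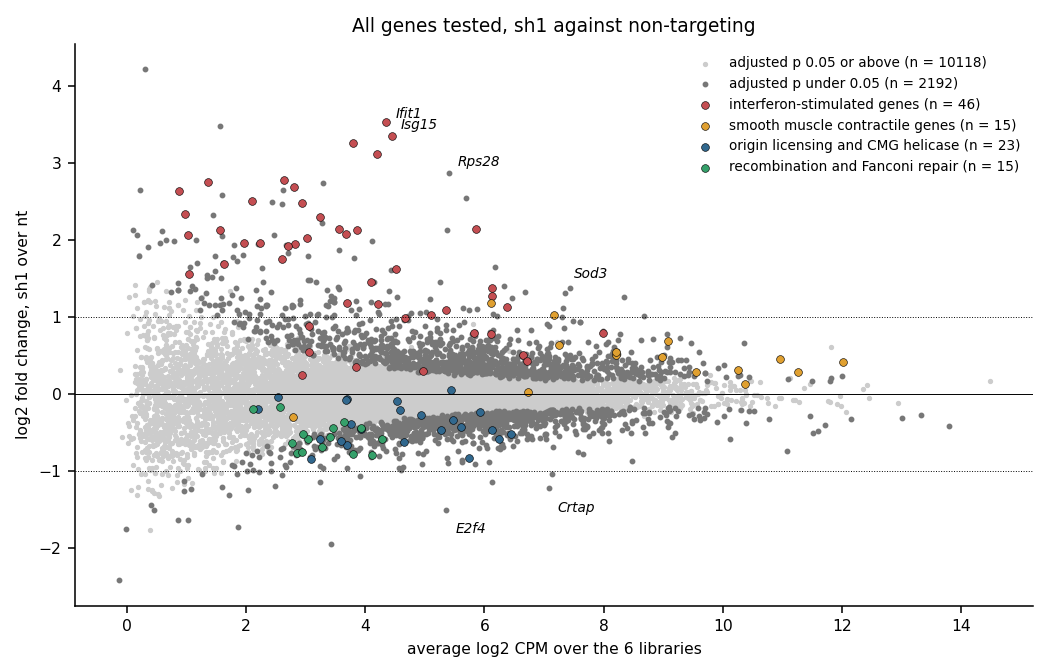
Log2 fold change of sh1 over nt (y axis) against the average log2 CPM over the 6 libraries (x axis) for all 12310 genes tested, with 4 gene lists in colour and dotted lines at 2-fold. Interferon-stimulated genes lie far above the rest, replication and repair genes mostly lie between 0 and -1, and E2f4 and Crtap are among the lowest points at their level.

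The promoters of the genes that moved farthest in the interferon and replication lists are shown here because members of each list moved together. The windows are 60 bases upstream of an annotated start in the RefSeq promoter table of GRCm38.p6, written 5′ to 3′ on the strand of the gene. They were picked as the genes of each list with the largest changes that hold a match upstream of the start. For 5 interferon-stimulated genes that rose, capitals mark 1 match per window to the letters GAAA, any 2 bases and GAAA again, on either strand, the core of the interferon-stimulated response element (ISRE) that interferon-activated transcription factors bind. Further matches in the windows of Ifit1, Isg15 and Bst2, some of which overlap the marked one, are not set apart.
Ifit1 (chr19:34640779-34640838, + strand): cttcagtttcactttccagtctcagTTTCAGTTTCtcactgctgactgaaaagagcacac
Isg15 (chr4:156200850-156200909, - strand): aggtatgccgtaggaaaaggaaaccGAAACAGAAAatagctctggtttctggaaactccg
Trim30a (chr7:104465195-104465254, - strand): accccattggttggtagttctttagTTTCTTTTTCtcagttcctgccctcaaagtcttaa
Bst2 (chr8:71537562-71537621, - strand): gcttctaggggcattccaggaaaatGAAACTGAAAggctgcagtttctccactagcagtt
Ifit3 (chr19:34583382-34583441, + strand): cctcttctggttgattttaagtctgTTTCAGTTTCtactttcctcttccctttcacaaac
For 5 genes of replication, repair and the E2F family that fell, capitals mark 1 E2F core per window, read on either strand, and a further core in the window of Mcm6 that overlaps the marked one is not set apart. The search covered TTCCCGC as the first core, TTGGCGC as the next, then TTCGCGC and last the core TTGCCGC.
Orc1 (chr4:108579394-108579453, + strand): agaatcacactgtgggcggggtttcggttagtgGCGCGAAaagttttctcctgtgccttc
Brca2 (chr5:150522427-150522486, + strand): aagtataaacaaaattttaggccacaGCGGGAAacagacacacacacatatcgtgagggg
Cdc6 (chr11:98907987-98908046, + strand): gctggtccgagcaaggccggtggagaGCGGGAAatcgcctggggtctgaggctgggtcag
E2f8 (chr7:48881674-48881733, - strand): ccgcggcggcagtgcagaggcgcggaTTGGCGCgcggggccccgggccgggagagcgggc
Mcm6 (chr1:128359715-128359774, - strand): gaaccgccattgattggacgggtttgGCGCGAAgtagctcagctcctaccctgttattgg

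The strongest response to the E2f4 hairpin was that of interferon-stimulated genes. These are the genes that cells switch on when secreted interferon, or RNA or DNA sensed in the cytoplasm, sets off signalling to the nucleus, and their products block viral replication. Of 51 genes on the list, 46 were tested, 42 rose, 35 of these by more than 2-fold, and the median log2 fold change was 1.84. None of the 46 fell by edgeR (0 at an unadjusted p under 0.05 and 0 by DESeq2, which called 42 higher). The summed level of the list was 1577 to 2031 CPM in the sh1 libraries and 784.5 to 899.6 in the nt libraries. Ifit1, which binds foreign RNA, was at 30.6, 59.8 and 23.2 CPM in sh1 and at 2.43, 3.05 and 4.26 in nt. The sh1 libraries were all well above nt, and sh1 replicate 2 was the highest. The log2 fold change of Ifit1 was 3.54 ± 0.33 (SE, adjusted p = 7.24e-06). Isg15, a ubiquitin-like modifier, was at 29.8, 43.5 and 46.2 CPM in sh1 and at 2.91, 3.54 and 5.23 in nt, a log2 fold change of 3.34 ± 0.21 (adjusted p = 2.14e-07). Usp18, the protease that removes ISG15 and damps interferon signalling, rose by 3.26 and Oasl2, of the oligoadenylate synthetase family, by 3.12 on the log2 scale. Trim30a and Bst2 (tetherin, which holds budding virus on the cell surface) rose by 2.31 and 2.15. Leaving out any single library left 41 to 43 members higher.

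A separate list of interferon ligands, receptors and signalling genes changed less than the interferon-stimulated list. It does not cover all inducers of the response. The RNA sensors Ifih1, Ddx58 and Dhx58 are on the interferon-stimulated list. Their log2 fold changes were 1.55, 1.26 and 2.18 without sh1 replicate 3. Of the 15 genes on the separate list, 1 had no reads in any library and 14 were tested, none of them an interferon ligand. Of these, 1 rose, Ifngr2, a chain of the interferon gamma receptor, at 87.3, 97.0 and 92.9 CPM against 75.9, 74.9 and 78.2. Its log2 fold change was 0.27, and its call was lost without sh1 replicate 2, nt replicate 1 or nt replicate 2. Among genes of MHC class I presentation, the machinery that cuts and displays intracellular peptides, 11 of 17 tested rose, with a median of 0.52. The immunoproteasome subunit Psmb8 was at 6.99, 10.4 and 12.6 CPM in sh1 and 3.11, 1.67 and 3.00 in nt, which is 3.81-fold. The peptide transporter Tap1 was at 33.2, 33.4 and 32.4 CPM against 14.9, 16.6 and 19.1, and neither gene's groups overlapped. Of 18 NF-kB subunits and feedback genes tested, 2 rose (Ptgs2 and Sod2) and 1 fell (Rela), close to the shares over all genes.

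Further genes outside the list belong to the same families. Grouped by symbol after their values were seen (Gbp, Ifi, Slfn, Trim12, Trim30, Trim34, Irgm, Oas and Apol9), 26 tested genes in no list included 19 that rose, 18 of them by more than 2-fold. Ifi203, a nucleic acid-binding protein of the PYHIN family, was at 13.6, 18.7 and 15.3 CPM in sh1 against 3.21, 2.46 and 4.45 in nt. Irgm2, an immunity-related GTPase, was at 21.4, 26.6 and 16.7 against 5.25, 8.07 and 5.71. Lgals3bp, a secreted galectin-binding glycoprotein, was among the most abundant genes that rose by more than 2-fold, at 217.6, 235.6 and 296.6 CPM against 84.3, 94.4 and 109.6. Members of the Ifi200, Trim30, Oas, Ifit and H2-Q families share near-identical stretches, so reads may be split among them and the values of single members are uncertain. Markers of macrophages, cells that also express interferon-stimulated genes, were at a low level and moved in both directions. Of 14 such markers, 4 were tested and 2 rose (Lyz2 and Csf1r). The other 2 tested, Cd14 and Cd68, had negative log2 fold changes, the lowest -0.851, and did not pass the test. The summed level of the 14 markers was 18.1 to 24.3 CPM in sh1 and 9.25 to 14.4 in nt. Cx3cr1 had no reads and Adgre1 and Ptprc stayed at 0.777 CPM or less, and the part of these cells in the result was not tested.

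**Figure D2:**
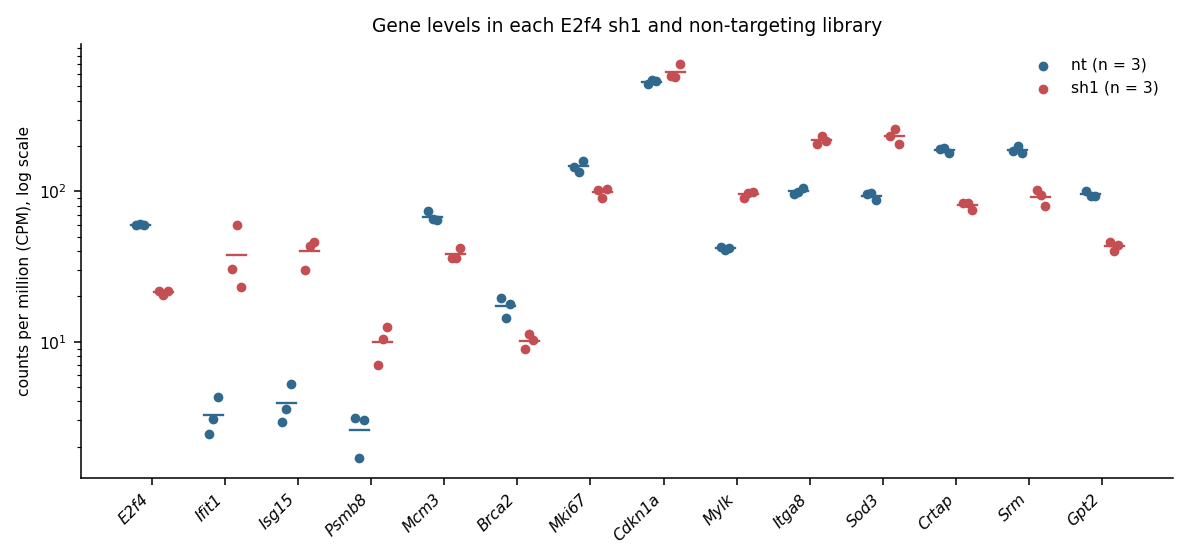
CPM on a log axis for 14 genes in the 3 nt (blue) and 3 sh1 (red) libraries, each point a library and each line the mean of a group. E2f4 sits at 20.4 to 21.8 in sh1 and 59.6 to 60.8 in nt, and Ifit1, Isg15 and Psmb8 have their lowest sh1 library above their highest nt library.

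The other E2F and DP genes changed less than E2f4. Of the 10 E2F and DP genes, all tested, 4 fell, E2f4 itself among them, and 1 rose. E2f3, an activator E2F, fell from 60.3 ± 1.06 to 44.9 ± 2.41 CPM (SD, n = 3 and 3), a log2 fold change of -0.42 (adjusted p = 0.00263). E2f6, which represses through Polycomb partners, was at 87.5, 78.3 and 79.8 CPM in sh1 and 54.3, 52.96 and 56.2 in nt. It was the member that rose, by 0.59 on the log2 scale (adjusted p = 0.000156). The atypical repressor E2f8 fell by 0.60 and the DP partner Tfdp1 by 0.29, and both calls were lost without nt replicate 2, which left 2 members lower. E2f1, at 49.5, 49.7 and 50.1 CPM against 50.7, 45.2 and 41.0, overlapped between the groups, and its log2 fold change was 0.12 (adjusted p = 0.394). E2f2, E2f5, E2f7 and Tfdp2 had log2 fold changes of -0.68, -0.29, -0.39 and -0.12 and did not pass the test.

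Among 12 pocket protein and DREAM genes, 2 fell. These were Foxm1, the factor that drives G2/M transcription, from 60.2 ± 2.08 to 43.2 ± 1.24 CPM (SD, n = 3 and 3), and Mybl2, the activator that replaces DREAM on mitotic promoters, from 15.8 ± 0.709 to 10.1 ± 1.8 CPM. The call of Mybl2 was lost without nt replicate 2 (adjusted p = 0.0506). The pocket protein genes Rb1, Rbl1 and Rbl2 had log2 fold changes of 0.09, -0.31 and -0.06. Lin9, Lin37, Lin52, Lin54, Rbbp4, Mybl1 and Dyrk1a lay between -0.40 and 0.28, with no call. Of 7 CDK inhibitors, 1 passed the test: Cdkn2c (p18) fell from 29.1 ± 2.09 to 21.4 ± 1.02 CPM. Cdkn1a, which encodes the arrest protein p21, was at 582.1, 572.4 and 706.9 CPM in sh1 and 516.2, 551.4 and 543.6 in nt. Its groups did not overlap, but the log2 fold change of 0.21 had an adjusted p of 0.0734, which passed the threshold without sh1 replicate 1 or 2. Without sh1 replicate 3, the highest library, the log2 fold change of Cdkn1a was 0.11 (adjusted p = 0.13). Cdkn2a, the Ink4a/Arf gene, was at 53.6, 62.3 and 52.7 CPM against 62.4, 63.9 and 62.4, a log2 fold change of -0.16 (adjusted p = 0.214), and the reads of its overlapping transcripts cannot be told apart. Cdkn2b, Cdkn1b, Cdkn1c and Cdkn2d had log2 fold changes of 0.16, 0.17, -0.30 and 0.13 without a call.

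DNA replication and repair genes were lower with sh1. Of 23 origin licensing and CMG helicase genes, whose products load and start the replicative helicase, 13 fell, with a median log2 fold change of -0.42. Mcm3, a subunit of the MCM helicase, was at 36.1, 36.0 and 42.2 CPM in sh1 and 73.8, 65.7 and 64.1 in nt, without overlap. Its log2 fold change was -0.83 ± 0.09 (SE, adjusted p = 4.27e-05). Orc1, of the origin recognition complex, was at 6.51, 5.69 and 5.47 CPM against 9.62, 8.76 and 13.3, with nt replicate 3 the highest. The fall of Orc1 was -0.84 on the log2 scale, and -0.63 (adjusted p = 0.0667) without nt replicate 3. Cdt1, the licensing factor, fell by 0.62 and Mcm6 by 0.51. The count of 13 became 8 without nt replicate 2 and 8 without nt replicate 3.

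Of 15 recombination and Fanconi repair genes, 9 fell, and the median of -0.585 was the lowest of any list with at least 5 members tested. Brca2, a mediator of homologous recombination, was at 8.90, 11.2 and 10.2 CPM in sh1 and 19.5, 14.3 and 17.7 in nt. Fanca, of the Fanconi core complex, was at 13.97, 9.63 and 13.8 against 24.8, 16.6 and 23.1. Both fell without overlap, by 0.77 and 0.78 on the log2 scale. Without nt replicate 1 or nt replicate 3, 4 of the 15 genes fell. Of 15 nucleotide synthesis genes, 8 fell, among them Dut, which clears dUTP, from 44.0 ± 0.35 to 30.2 ± 2.17 CPM, and Cad, which starts pyrimidine synthesis, from 218.1 ± 3.72 to 152.7 ± 7.48 CPM (SD, n = 3 and 3). Without nt replicate 1 the count was 4 and without nt replicate 3 it was 3.

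The Seurat lists, marker sets used to place single cells in the cell cycle, moved in the same direction. Of 43 S phase genes, 20 fell (46.5%) with a median of -0.38, and of 54 G2/M genes, 22 fell (40.7%) with a median of -0.27. None rose by edgeR (0 by DESeq2), and 30 and 37 were lower at an unadjusted p under 0.05. The summed S phase level was 1287 to 1324 CPM in sh1 and 1609 to 1661 in nt, and the summed G2/M level was 2690 to 2807 in sh1 and 3244 to 3358 in nt. Of 20 cyclins and cell-cycle kinases, which overlap these lists, 9 fell, among them Plk1 and Bub1 by 0.46 and 0.56, and the count was 5 without nt replicate 2 and 3 without nt replicate 3. Each change in the Seurat lists was under 2-fold, and tested against a 1.5-fold limit the number of members lower was 0 in both lists. Without 1 of the nt libraries the S phase count was 13 each time. The G2/M count was 12 without nt replicate 1, 13 without nt replicate 2, 14 without nt replicate 3 and 13 without sh1 replicate 2. Uhrf1, which guides maintenance of DNA methylation, fell from 59.7 ± 5.66 to 38.7 ± 2.88 CPM, and the polymerase subunit Pola1 from 28.6 ± 2.1 to 18.4 ± 1.86 CPM. The proliferation marker Mki67 was at 102.3, 89.7 and 103.6 CPM in sh1 and 144.9, 135.0 and 159.4 in nt, a log2 fold change of -0.57 (adjusted p = 0.000207). The condensin subunit Ncapd2 and the spindle protein Hmmr both fell by 0.64. Of 12 nuclear lamina and high mobility group genes, 4 fell, including Lmnb1 (lamin B1, a nuclear envelope protein that declines in many senescent cells), from 57.8 ± 1.27 to 40.0 ± 2.38 CPM. That count was 2 without sh1 replicate 2, nt replicate 1 or nt replicate 2. Of 69 replication-dependent histone genes, 15 were tested and 1 rose, Hist1h2bc, a call lost under DESeq2 (adjusted p = 0.0684), and their transcripts, which lack poly(A) tails, are poorly captured by many library types.

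For E2f4 overexpression, a separate experiment with its own libraries, the study displayed 24 genes, 21 of them division genes and the other 3 the arrest genes Cdkn1a, Cdkn2a and Cdkn2b. Of the 24, 8 fell with sh1 and the others did not pass the test. Those that fell were Foxm1, Ccnb1, Racgap1, Spag5, Cenpn, Kif22, Spdl1 and Mdm1, of which Foxm1 kept its call without each single library. Ccnb1, cyclin B1, was at 54.2, 47.6 and 45.5 CPM in sh1 and 64.9, 59.7 and 68.6 in nt, and its call was lost without nt replicate 3 (adjusted p = 0.062).

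**Figure D3:**
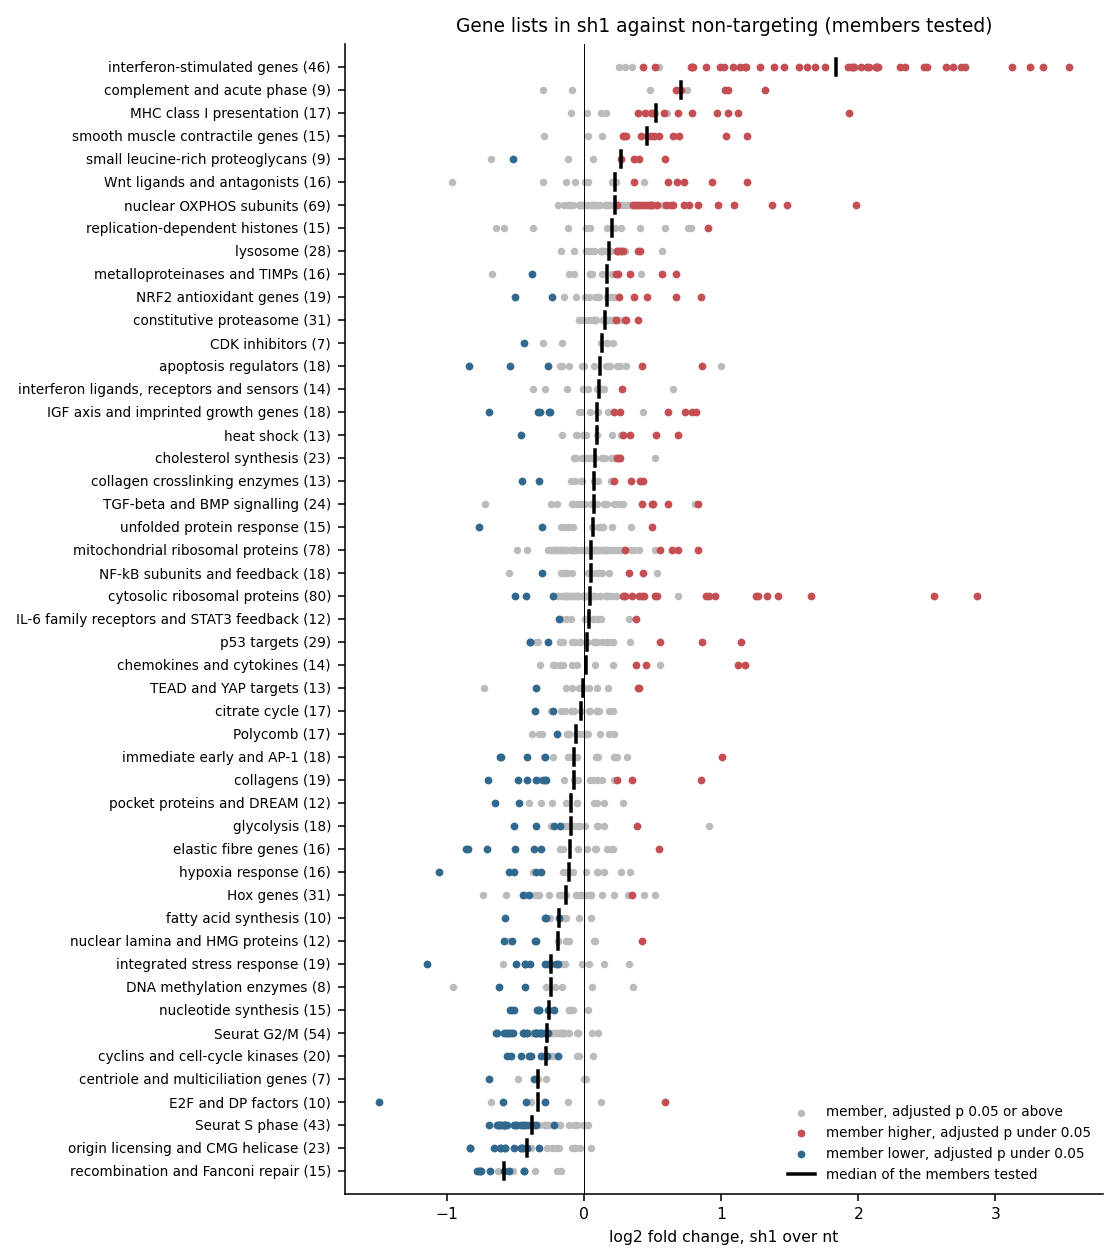
Log2 fold change of sh1 over nt (x axis) for the members of each gene list with at least 5 members tested (number in brackets), ordered by the median (black line), with red and blue points for members that rose and fell at an adjusted p under 0.05. The interferon-stimulated genes have the highest median, 1.84, and the recombination and Fanconi repair genes the lowest, -0.585.

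Outside the interferon and cell-cycle lists, genes of the smooth muscle contractile apparatus rose. Of 15 genes, 12 rose, with a median log2 fold change of 0.46. Mylk, the myosin light chain kinase, was at 89.8, 98.0 and 98.9 CPM in sh1 and 42.9, 40.9 and 42.3 in nt, a log2 fold change of 1.18 ± 0.08 (SE, adjusted p = 3.66e-07). Myh11, smooth muscle myosin heavy chain, was at 171.6, 203.1 and 207.9 CPM against 88.0, 99.9 and 96.9. Neither gene's groups overlapped, and in both the change was more than 2-fold. Acta2 (smooth muscle actin) and Tagln (transgelin), the most used markers of contractile fibroblasts, rose by 0.42 and 0.46. Of the 6 pericyte and smooth muscle markers, 5 were tested and 2 rose (Myh11 and Cspg4), with a summed level of 499.8 to 552.9 CPM in sh1 and 298.7 to 339.0 in nt, while the pericyte genes Rgs5 and Kcnj8 stayed at 2.19 CPM or less. Fewer or more cells of a type and less or more RNA per cell cannot be told apart in such bulk libraries. Itga8, the integrin alpha 8 chain found on contractile mesenchymal cells, was at 206.0, 232.2 and 216.1 CPM against 96.4, 99.4 and 106.0. Mylk and Itga8 each overlap an antisense transcript, and the counting was not stranded.

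The extracellular matrix changed in both directions. Of 19 collagen genes, 7 fell and 3 rose (5 rose without sh1 replicate 2). Col3a1, a fibrillar collagen of skin, was at 2577, 2406 and 2831 CPM in sh1 and 3694, 3705 and 3533 in nt, and Col1a1 and Col5a3 fell by 0.42 and 0.70 on the log2 scale. Col8a1, a network-forming collagen, was at 202.8, 212.1 and 208.7 CPM against 107.3, 118.9 and 118.8, a rise of 0.85. Of 16 elastic fibre genes, 6 fell and 1 rose. The fibrillin Fbn2 fell to 54.9% of nt and Ltbp4, which tethers latent TGF-beta, to 55.4%, whereas Mfap5 rose by 0.55. Of 9 small leucine-rich proteoglycans, 4 rose, among them decorin (Dcn, 0.36) and fibromodulin (Fmod, 0.59), and Ogn fell by 0.52. Timp3, an inhibitor of metalloproteinases, was at 1568, 1584 and 1702 CPM against 1038, 974.0 and 1043, and was among 5 of 16 metalloproteinase and TIMP genes tested that rose, 3 without nt replicate 1 or nt replicate 3. Of 13 collagen crosslinking enzymes, 4 rose and 2 fell, and 2 rose without nt replicate 1 or nt replicate 2.

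Crtap, a gene in none of the lists, encodes the cartilage-associated protein, a partner of the collagen prolyl 3-hydroxylase P3H1. It was at 83.5, 84.0 and 75.1 CPM in sh1 and 191.2, 194.6 and 181.0 in nt. The sh1 libraries stood at 42.8% of nt, with a spread far smaller than the difference, and the log2 fold change was -1.22 ± 0.07 (SE, adjusted p = 2.14e-07). With E2f4, Isg15, Itga8 and 1500015O10Rik it shared the smallest adjusted p of any gene named here.

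Of 9 complement and acute phase genes tested, 5 rose, among them C1s1, a protease of the classical pathway, at 15.3, 18.9 and 23.4 CPM against 9.81, 9.75 and 8.71. The count was 3 without nt replicate 1 or nt replicate 3. Of 16 Wnt ligands and antagonists, 6 rose, led in abundance by the secreted antagonist Sfrp1 at 244.7, 247.3 and 277.8 CPM against 136.7, 137.4 and 128.6. Of 24 TGF-beta and BMP signalling genes, 5 rose, 8 without sh1 replicate 3, and the activin antagonist Fst and the activin subunit gene Inhba were among them at 0.83 and 0.61. In the IGF axis 6 of 18 rose and 5 fell. Igfbp3 and Igfbp5, binding proteins of the insulin-like growth factors, rose by 0.82 and 0.78, Igf1 by 0.73, and the imprinted H19 fell by 0.69. The number that fell in this axis was 2 or 3 without sh1 replicate 1, sh1 replicate 2 or any nt library. Of 14 chemokine and cytokine genes tested, 4 rose and 2 of these by more than 2-fold. These were Cxcl14, at 68.6, 63.5 and 71.8 CPM against 32.0, 30.3 and 31.3, and Il11, at 9.28, 10.4 and 10.9 against 6.51, 3.35 and 3.68. Of 12 IL-6 family receptor genes, Il11ra1 rose and Osmr fell, both with calls lost without single libraries.

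Of 19 genes of the integrated stress response, the ATF4 program of amino acid synthesis and transport, 10 fell, with a median of -0.24. Gpt2, the mitochondrial alanine aminotransferase, was at 45.9, 40.2 and 43.8 CPM in sh1 and 100.7, 93.0 and 93.7 in nt, a log2 fold change of -1.14 ± 0.08 (SE, adjusted p = 6.77e-07). Psat1 and Shmt2, of serine and glycine synthesis, fell by 0.43 and 0.50. The count was 6 without sh1 replicate 2, 4 without nt replicate 1 and 4 without nt replicate 2. Srm, spermidine synthase, was at 102.4, 94.0 and 79.7 CPM against 185.0, 200.9 and 179.7, and Myc, which drives growth genes, fell from 74.8 ± 3.96 to 48.7 ± 6.39 CPM (SD, n = 3 and 3). Of 16 hypoxia response genes, 5 fell, led by the adenylate kinase Ak4 at 9.28, 8.65 and 10.8 CPM against 18.7, 20.9 and 20.4. That count was 2 or 3 without any 1 of the nt libraries. Of 15 unfolded protein response genes, the chaperone Hyou1 and Sel1l fell, by 0.77 and 0.31, and Herpud1 rose by 0.49. Of 10 fatty acid synthesis genes 4 fell (2 without nt replicate 1 or nt replicate 3), of 23 cholesterol synthesis genes 3 rose (0 without sh1 replicate 2 or nt replicate 1, 1 without nt replicate 2 or nt replicate 3 and 5 without sh1 replicate 1), and of 18 glycolysis genes 4 fell and 1 rose (1 or 2 fell without any 1 nt library). Of 28 lysosome genes 6 rose, among them Ctsd and Hexa, 11 without sh1 replicate 3 and 3 without nt replicate 1. Of 19 NRF2 antioxidant genes 5 rose, 9 without sh1 replicate 3, led by Gsta4 and Nqo1, and 2 fell (0 without sh1 replicate 2 or nt replicate 3, and 1 without sh1 replicate 1, nt replicate 1 or nt replicate 2).

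Genes activated by p53, the damage-responsive tumour suppressor, changed in both directions. Of 29 p53 targets, 3 rose and 3 fell, close to the background. Without sh1 replicate 1, 5 rose, and without any 1 nt library, 1 fell. Perp, a desmosomal and death-promoting membrane protein, was at 6.22, 6.90 and 7.22 CPM against 2.91, 3.54 and 2.71, and the death receptor Fas was at 13.4, 15.1 and 13.2 against 8.06, 7.88 and 7.06. Btg2 rose by 0.56. Of the 18 apoptosis regulators tested, 2 rose (Fas and Bid, the latter by 0.42) and 3 fell, with a median log2 fold change of 0.114. Apaf1 and Casp9, both of the apoptosome, were among those that fell, by 0.54 and 0.84. The call of Casp9 was lost without nt replicate 3. Of 18 immediate early and AP-1 genes, Nr4a1, an orphan nuclear receptor, rose to 209.2, 226.8 and 193.9 CPM from 123.0, 96.5 and 94.1, and Jun, Jund, Egr1 and Myc fell. The call of Egr1 was lost without nt replicate 1 and that of Jund in a joint fit with the other knockdown libraries. Of 31 Hox genes tested, 1 rose and 2 fell, and of 17 Polycomb genes 1 fell, at or below the background shares. Heat shock genes changed in 5 of 13 cases, 4 of them upward, with the small heat shock proteins Hspb1 and Cryab at 0.68 and 0.52. DNA methylation enzymes fell in 2 of 8 cases, Dnmt1 by 0.43 and Uhrf1 as above. Of 13 TEAD and YAP targets 2 rose and 1 fell, of 17 citrate cycle genes 2 fell, and of 31 proteasome genes 4 rose.

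The farthest-moving genes in none of the interferon and cell-cycle lists were picked at an average log2 CPM of 3 or more and without overlap between the groups. The highest by fold were Rps28, Clec2d, Rps29, Ifi203, 1500015O10Rik, Ndufa3, Ifi27l2b, Trim30d, Irgm2 and Rpl38. 1500015O10Rik, the secreted peptide gene also called augurin or Ecrg4, was at 54.0, 70.1 and 77.9 CPM in sh1 and 15.4, 15.6 and 15.1 in nt, 4.37-fold higher. Below it, Sod3, the extracellular superoxide dismutase, was at 231.5, 259.6 and 205.8 CPM against 95.9, 97.7 and 87.4, and Scpep1, a serine carboxypeptidase, at 508.3, 590.0 and 549.7 against 266.2, 293.0 and 255.5. Only 7 genes met the same limits among those that fell by more than 2-fold: Erdr1, E2f4, Crtap, Gpt2, Rcor2, Ak4 and Srm. Erdr1, at 4.88, 6.13 and 1.75 CPM against 14.5, 17.0 and 17.9, has near-identical copies at the end of the sex chromosomes and its value is uncertain. Rcor2, a corepressor of the CoREST family, was at 5.07, 6.13 and 5.91 CPM against 14.1, 11.4 and 12.1.

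Some very short transcripts were far higher in sh1 replicate 3 than in the other sh1 libraries. Rps28, a ribosomal protein gene, was at 18.8 and 21.0 CPM in sh1 replicates 1 and 2 and at 185.6 in replicate 3, against 7.87, 8.27 and 14.5 in nt. Its log2 fold change was 2.87 (adjusted p = 0.0102) with all libraries and 0.96 (adjusted p = 8.29e-05) without sh1 replicate 3. Rps29 was at 22.97, 24.1 and 220.9 CPM in sh1 and 12.5, 15.9 and 17.0 in nt. Rpl41, among the 5 most abundant genes that rose by more than 2-fold, had a log2 fold change of 1.27 with and 0.38 without that library. Of the 180 genes that rose by more than 2-fold, 19 had a level in sh1 replicate 3 over 2 times that of both other sh1 libraries. Their median transcript length was 545.5 bases, against 2097 for the others, and without sh1 replicate 3, 15 of them still rose but 1 stayed over 2-fold. Ribosomal proteins and nuclear oxidative phosphorylation subunits are short, and their counts moved with this library. Of 80 ribosomal protein genes tested, 18 rose and 3 fell, and without sh1 replicate 3, 17 rose and 14 fell. The 18 became 3 without nt replicate 1, 4 without nt replicate 2 and 6 by DESeq2, and the 3 became 6 without sh1 replicate 2 and 1 without nt replicate 1 or nt replicate 2. Of 69 oxidative phosphorylation genes, 22 rose, and the count was 14 without sh1 replicate 3, 4 without nt replicate 1, 8 without nt replicate 2 and 12 without nt replicate 3. Over all genes the median log2 fold change was 0.09 at transcript lengths of 400 to 600 bases and -0.07 above 5000 bases. Clec2d, the ligand of an inhibitory natural killer cell receptor, was at 8.80, 6.79 and 35.7 CPM against 2.04, 3.05 and 2.52, and its log2 fold change was 2.74 with and 1.63 without that library. The interferon-stimulated list did not move with it, with 42 members higher and a median of 1.85 without sh1 replicate 3. The cause of the difference between this library and the others was not tested.

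**Figure D4:**
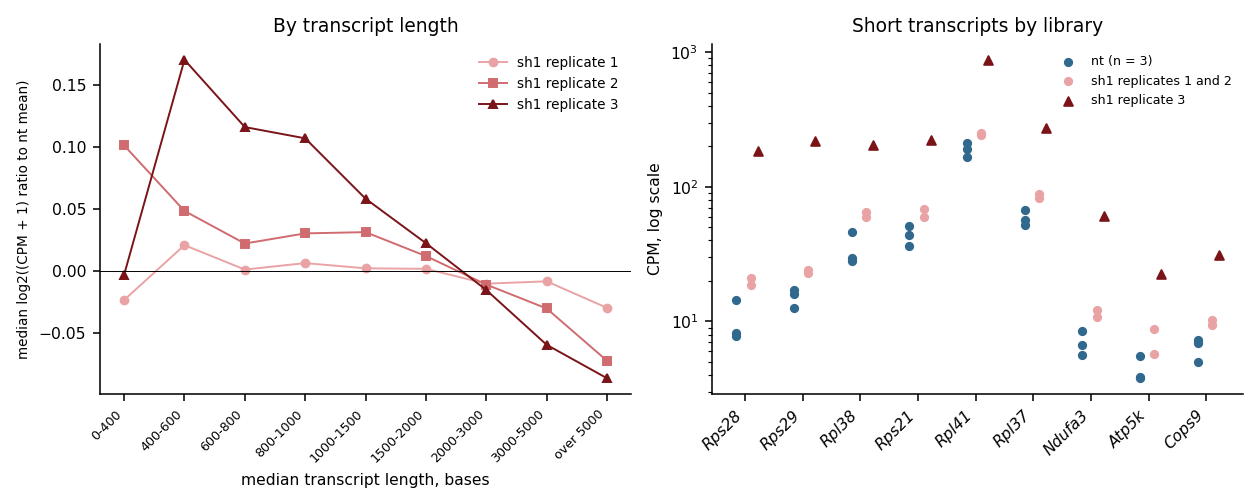
Left, the median log2 ratio of each sh1 library to the nt mean (CPM + 1) for genes binned by the median length of their annotated transcripts in bases. Right, CPM on a log axis of 9 short transcripts in each library, chosen because sh1 replicate 3 (triangles) lies above all other libraries there. The median of the 44 genes up to 400 bases was -0.0034 in that library, so only some short transcripts were high.

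Motif letters in promoters differed between the genes that rose and those that fell. Of the tested genes, 9828 of 12310 had a RefSeq promoter (300 bases, 250 before the start), and both strands were searched. An E2F core was in 25.4% of the promoters of genes that fell, in 15.4% of those of genes that rose, in 19.8% of those of all genes tested and in 10.9% of all promoters in the table. With a further T in front (for example TTTCCCGC), the shares were 8.35%, 2.46%, 4.77% and 2.6%. The ISRE letters were in 25.4% of the promoters of genes that rose by more than 2-fold, in 3.53% of all tested and in 3.99% of all in the table. The share was 51.4% of the 35 interferon-stimulated genes with a promoter and 17.7% of genes outside that list that rose by more than 2-fold. The cell-cycle homology region (CHR, TTTGAA or TTCGAA) was in 76.6% of the 47 Seurat G2/M promoters against 16.2% of all tested (21.7% in the table), and in 19.9% of those of genes that fell. E2F cores were in 67.7% of the 31 Seurat S phase promoters. Of the 18 promoters of genes that fell by more than 2-fold, 1 held an E2F core, which allows a share of 0.141% to 27.3% (95% exact binomial interval, counting error only). CCAAT was in 45.5% of the promoters of genes that fell and 40.9% of those that rose (43.2% of all tested and 41.1% in the table). AP-1 letters (TGACTCA or TGAGTCA) were in 3.86% and 5.94% (4.44% and 5.95%), and NF-kB letters (GGG, any 2 bases and TTTCC) in 1.29% and 2.15% (1.94% and 1.89%). The promoters of interferon-stimulated genes had a GC content of 51.8% against 60.9% for all tested, and matches overlap between E2F and its longer form. A match is a string of letters and not a site shown to be bound.

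The response to the E2f4 hairpin was next compared with that to the 4 other hairpins of the series, Tead1 sh3 and sh4 and Atf3 sh5 and sh6, each against its own non-targeting libraries, in a joint fit of 24 libraries. The hairpins of 1 gene share a control. Interferon-stimulated genes also rose with another hairpin. With Tead1 sh3, 22 of 50 interferon-stimulated genes rose, with a median log2 fold change of 1.52 (8.77% of all genes rose with that hairpin). With Tead1 sh4 the median was 0.42, and 0 of 50 rose by edgeR (6.02% of all genes, 2 at an unadjusted p under 0.05 and 1 by DESeq2). With Atf3 sh5 and sh6, 37 and 31 of 50 fell, with medians of -1.35 and -1.08 (24.1% and 28.5% of all genes fell). The difference itself was tested for each gene. For Tead1 sh3, 0 of 50 members had a higher effect of E2f4 sh1 (8.08% of all genes, 2 at an unadjusted p under 0.05 and 0 by DESeq2). For Tead1 sh4 the number was 4 (7.26%), which became 1 or 2 without sh1 replicate 2, sh1 replicate 3, nt replicate 1 or nt replicate 2. For Atf3 sh5 and sh6 it was 46 (17.7%) and 44 (22.6%). Ifit1, for example, had a difference of 0.29 ± 1.597 (SE) from Tead1 sh3 and of 5.64 ± 1.11 from Atf3 sh5 on the log2 scale. A p that misses the threshold does not show equal effects, since these genes varied more in the joint fit, where their median SE was 0.425, against 0.218 in the 6 libraries, and where 32 of 50 rose with E2f4 sh1.

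Cell-cycle genes were lower with E2f4 sh1 than with the other hairpins in part of the lists. The sh1 effect was lower than that of Tead1 sh3 for 12 of 43 S phase genes and 8 of 54 G2/M genes (5.3% of all genes), and lower than that of Tead1 sh4 for 20 and 20 (5.11%). Against Atf3 sh5 the numbers were 24 and 33 (16.8%) and against Atf3 sh6 they were 19 and 16 (21.9%), the latter a share of the G2/M list near the background. For smooth muscle contractile genes, the sh1 effect was higher than that of Tead1 sh3, Tead1 sh4 and Atf3 sh5 in 12 of 15 each time. It was lower than that of Atf3 sh6 in 8. Crtap had differences of -1.47, -1.40, -1.16 and -0.92 from Tead1 sh3, Tead1 sh4, Atf3 sh5 and Atf3 sh6. All 4 differences use the same E2f4 sh1 and nt libraries, so they are not independent of each other, and the experiments differ in culture and depth.

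**Figure D5:**
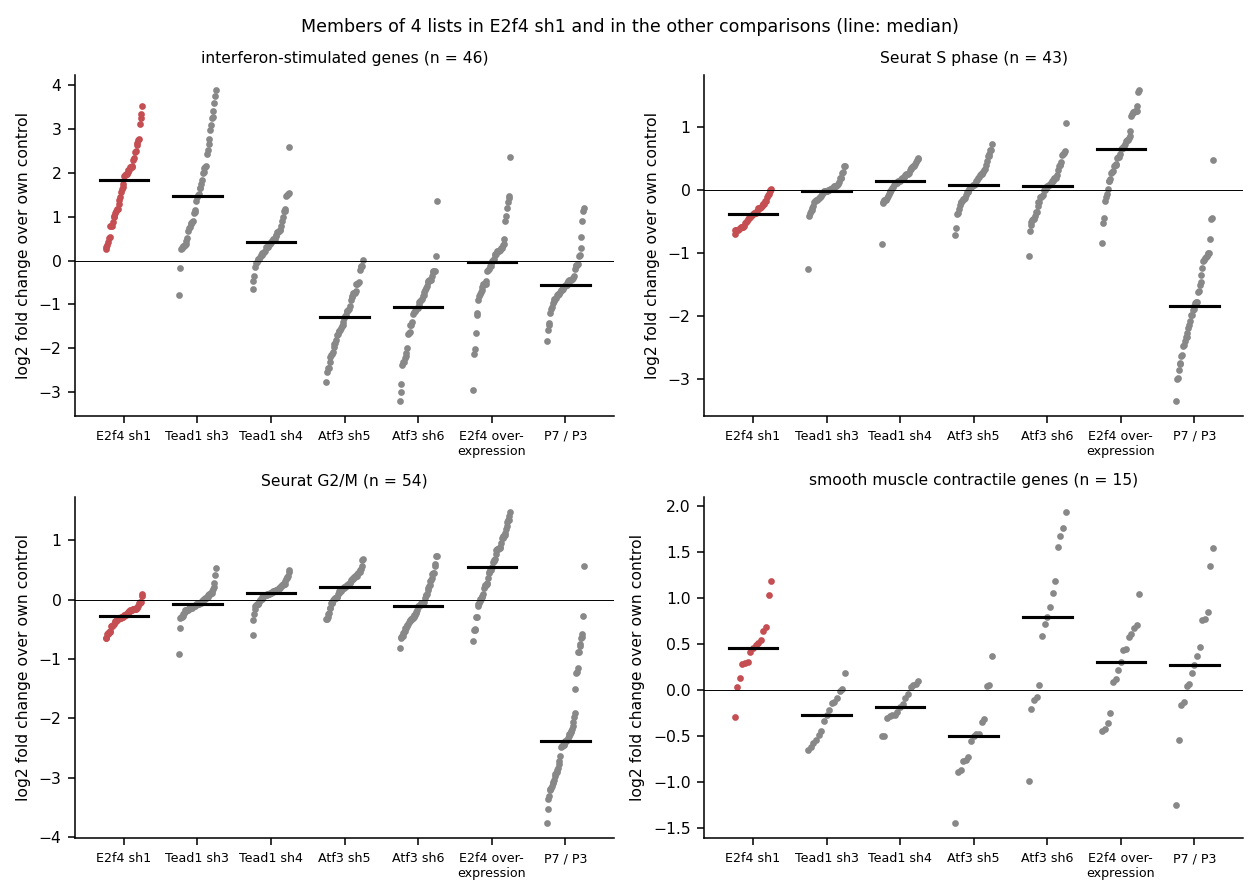
Log2 fold change over the own control (y axis) for the members of 4 lists tested in the 6 libraries, in E2f4 sh1 (red) and 6 other comparisons (grey), with each point a gene and each line a median. Interferon-stimulated genes are high with E2f4 sh1 and Tead1 sh3 and low with both Atf3 hairpins, and both cell-cycle lists have their lowest medians in P7 against P3.

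With overexpression of E2f4, more cell-cycle genes rose than fell. In that experiment, fibroblasts of a later passage carried a doxycycline-induced lentiviral E2f4, with 2 libraries and 2 controls, and E2f4 reads were higher by 4.81 ± 0.12 (SE) on the log2 scale, transgene included. With overexpression, 29 of 43 S phase and 34 of 54 G2/M genes rose (31.4% of all genes) and 3 and 4 fell (28.7%). The knockdown effect was lower than the overexpression effect for 33 of 43 and 41 of 54 (26.2% of all genes). Mcm3 changed by -0.83 with sh1 and by 1.31 with overexpression, a difference of -2.14 ± 0.14 (adjusted p = 5.03e-09). Of the interferon-stimulated genes, 37 of 47 had a higher effect of sh1 than of overexpression (25.9% of all genes), and 7 rose and 10 fell with overexpression itself. Of the 959 genes that fell with sh1, 504 rose with overexpression (52.6%, against 32.1% of all genes tested with sh1) and 189 fell (19.7%). They were 12.7% of the genes that rose with overexpression. Of the 1233 that rose with sh1, 470 fell with overexpression (38.1%, against 29.0%), which is 13.1% of those that fell, and 302 rose. Of the 15 smooth muscle contractile genes, 8 rose with overexpression too, whereas Mylk had a log2 fold change of -0.44 there. Passage and vector differ between these experiments. The overexpression libraries also differed from their own controls in other ways. All 5 sex-linked genes, Xist and Y-linked ones, were lower with overexpression, with a median of -1.81. Reads outside annotated genes were 6.01% and 5.64% with overexpression and 11.5% and 10.8% in the controls. The part of such differences in the overlaps was not tested.

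The changes with sh1 were last set beside those with passaging. Senescent cells at P7 were set against P3 in 16 passage libraries, in which 24.8% of genes rose and 26.5% fell. Per the study's methods, the passage cells came from female mice, whereas the sh1 and nt libraries carried Y-linked reads. The source of the cells thus differs between these comparisons. Of the 957 genes that fell with sh1 and were tested in both, 547 fell at P7 (57.2%, against 26.6% of all) and 94 rose, and the 547 were 16.9% of the genes that fell at P7. Of the 1226 that rose with sh1, 609 rose at P7 (49.7%, against 26.4%) and 153 fell, and the 609 were 18.9% of those that rose. At P7, 42 of 43 S phase and 52 of 54 G2/M genes fell, with medians of -1.83 and -2.38, several times the medians with sh1. Mki67 changed by -3.76 at P7 and by -0.57 with sh1, and Sod3 rose by 2.43 at P7 and by 1.31 with sh1. By contrast, 29 of 48 interferon-stimulated genes fell at P7 and 4 rose, with a median of -0.57. Crtap rose by 0.37 at P7, where E2f4 itself had a log2 fold change of -0.18 (adjusted p = 0.0897). Overlaps were counted without a test.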

How the data were processed

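Paired-end RNA-seq reads were, per the labels and the study's methods, trimmed with Trimmomatic 0.39, aligned to mm10 with HISAT2 2.2.1 and counted per gene with HTSeq 0.12.4 without strand, and the authors deposited the raw gene counts of each library (24984 genes). Rows that name no gene were left out of library sizes and tests (no feature, 8.80% to 14.3% of reads in the 6 libraries). Genes were kept by filterByExpr, scaled by TMM and tested with edgeR 4.0.16 (quasi-likelihood test, limma 3.58.1, R 4.3.3) with Benjamini-Hochberg adjustment over all genes tested. DESeq2 1.42.0 and other settings were alternatives. Differences between experiments were tested as contrasts of a joint fit. Levels are CPM after TMM scaling and are not per length. The steps were tested on simulated data. Depth was 9147324 to 10467751 gene counts a library.

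Members and lists were chosen with earlier results of these data known. Genes were named by rule: all E2F, DP, DREAM and CDK inhibitor genes, the farthest-moving genes at an average log2 CPM of 3 or more (overall and outside the interferon and cell-cycle lists), leading members of each list, the most abundant genes over 2-fold, genes the study displayed for E2f4 overexpression, and neighbours of E2f4. The farthest-moving genes also had to be changed over 2-fold without overlap between the groups. Other genes that appear are list members given as examples, chosen after their values were seen. Coordinates and promoters are RefSeq GRCm38.p6. The hairpin's sequence is not given here.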

Additional observations from a re-analysis of the deposited data

Results flagged for a closer look

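The effect of E2f4 sh1 differed from that of another perturbation, by a test of the difference itself (edgeR, adjusted p under 0.05), for 1846 genes against Tead1 sh3, 1706 against Tead1 sh4, 4767 against Atf3 sh5 and 6132 against Atf3 sh6. Against E2f4 overexpression it differed for 6758 genes. Among interferon-stimulated genes, the sh1 effect was the higher one for 4 of 50 against Tead1 sh4, close to the share over all genes (7.26%). Against Atf3 sh5 the number was 46 of 50 (17.7% of all genes) and against Atf3 sh6 it was 44 of 50 (22.6%). Against overexpression it was 37 of 47 (25.9%). The experiments were done in separate sets of libraries. The cells used for Atf3 and for overexpression were of a later passage, and the passage of the Tead1 cells is not stated. The gene and the experiment therefore cannot be told apart in these differences.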

How the results depend on the processing

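Counts moved with the settings, and no named gene that rose or fell was called in the opposite direction under the alternatives run. Small medians did change sign. Without sh1 replicate 3 the median log2 fold change went from 0.041 to -0.025 for ribosomal protein genes and from 0.048 to -0.05 for mitochondrial ones. Without a filter on low counts 53 genes fell by more than 2-fold, and with at least 10 counts in every library 13 did. Tested against a change of 1.5-fold, 85 genes were higher and 12 lower, of which 79 and 7 were over 2-fold, and 0 Seurat S phase and 0 G2/M genes were lower. Leaving out each library in turn gave 695 to 1401 genes higher, 436 to 1130 lower, 143 to 205 higher by more than 2-fold and 18 to 41 lower by more than 2-fold. It gave 13 to 23 S phase and 12 to 24 G2/M genes lower, 41 to 43 interferon-stimulated genes higher, and 1 to 5 of these with a higher effect of sh1 than of Tead1 sh4. DESeq2 called 1116 genes higher and 810 lower. With the replicate number as a block, 1263 genes were higher and 960 lower. The numbers did not pair the libraries, since same-numbered libraries correlated by 0.034, 0.028 and 0.023, although each library correlated best with its own number. Cdkn1a passed the threshold without a filter (adjusted p = 0.00997), with the block (0.0443), without sh1 replicate 1 (0.0419) or 2 (0.0373) and without genes of short transcripts (0.045). It did not pass without sh1 replicate 3 (0.13), where its log2 fold change was 0.11. A pair of settings was chosen after seeing the data. An offset by transcript length gave 1288 genes higher and 964 lower, and leaving out genes of transcripts under 800 bases gave 1152 and 921. Without those short genes, 4 oxidative phosphorylation genes, 3 ribosomal protein genes and 7 MHC class I genes rose. Fewer genes were tested there. With the length offset, the numbers that rose in these lists were 20, 16 and 11, against 22, 18 and 11 without it. The number of ribosomal protein genes that fell was 8 with the offset and 3 without it. The cause of the other moves was not tested.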
